A study of Mus musculus with 20 samples.

Results

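Interferon-stimulated genes are the genes that cells switch on when an interferon reaches them. A fixed list of 43 symbols was read from the 24062 genes of the count tables, and all 43 were found and were abundant enough to be tested. The list holds 26 genes of the type I interferon type (sensors, regulators and antiviral effectors) and 11 guanylate binding proteins and immunity related GTPases that interferon gamma induces. The other 6 are Irf1, genes of peptide supply to MHC class I, and chemokines. These class names only sort the list, and which interferon acted on a gene was not tested. No measured value was used to choose the symbols, although the list was drawn up with earlier results of these data known.

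Whole lungs of mice of a mixed C57/129 background were profiled by RNA-seq after ribosomal RNA had been depleted. The mice were 8 to 10 weeks old, of both sexes, and had either the normal arginase 2 gene (Arg2+/+, called wild type) or a knockout of it (Arg2-/-). They spent 28 days in room air (21% oxygen) or in a chamber at 10% oxygen (hypoxia), which raises pulmonary artery pressure in mice, and each of the 4 groups had 4 samples. The labels do not state how the knockout was made or where in the gene it lies, and nothing but the sample numbers says that the samples of a group are separate animals.

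Interferons act through paired receptors and JAK kinases. Type I interferons act through a complex that holds Stat2 and Irf9 and binds interferon-stimulated response elements, whereas interferon gamma works through gamma-activated sites and Irf1. The products degrade viral RNA, block its translation, break open vacuoles that hold microbes and load peptides for T cells. Many cells of the lung keep a low tonic level of these genes without infection.

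The sample with the fewest reads in genes, wild type room air 3, had 9531270, and the one with the most, knockout room air 3, had 63331530. The share of reads in genes was taken over reads counted in a gene or in no gene. All other reads, such as those with multiple alignments, were left out of it. In wild type room air 3, wild type hypoxia 1 and knockout hypoxia 3 it was between 25.4% and 37.7%, against 47.4% or more elsewhere. Multiple alignments per counted read numbered 6.33 to 12.4 in those samples and 2.34 to 4.55 elsewhere. In its group wild type hypoxia 4 stood apart, with a chi-square per degree of freedom of 135 to 143 against the other libraries, which differed among themselves by 4.79 to 8.11. Genes of other organs stood out in knockout room air 3 and 4 and knockout hypoxia 1 and 2, and less in knockout hypoxia 3. The summed level of 7 thymocyte genes was 88.5 and 71.9 CPM (counts per 1000000 reads in genes, scaled by TMM) in knockout room air 3 and 4 and at most 19.1 elsewhere, and that of 8 pancreas genes was 1801 and 143 CPM in knockout hypoxia 1 and 2, 20.6 in knockout hypoxia 3 and at most 3.73 elsewhere. The summed level of 7 heart muscle genes was 919 CPM in knockout room air 3 and 143 to 516 elsewhere. Arg2 averaged 9.18 ± 1.92 CPM in room air and 9.30 ± 2.25 in hypoxia for wild type (mean ± SD of 4 samples), and 5.62 ± 1.47 and 4.28 ± 0.912 for the knockout. With 7.78 CPM, knockout room air 4 was not separate from wild type, standing above wild type room air 4 at 7.30 and wild type hypoxia 1 at 6.33 CPM. Knockout against wild type, its log2 fold change ± SE was -0.70 ± 0.21 at 21% oxygen (adjusted p = 0.0843, edgeR's quasi-likelihood test) and -1.13 ± 0.22 at 10% (adjusted p = 0.00191). A deletion that spares some exons leaves reads to count, and Arg2 shares 285 exon bases with Vti1b on the opposite strand, so the level is a partial check of the labels. The lung markers Sftpc and Scgb1a1 were abundant in all groups, with Sftpc group means from 10273 to 11275 CPM.

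The genes differed widely in level. Per kilobase of exon, averaged over all 16 samples, Bst2, which tethers budding virus to the cell, was highest at 63.3 CPM per kb. Irf1 at 44.5 and Gbp2 at 43.6 CPM per kb came next. The chemokine genes Cxcl10 at 0.482 and Cxcl9 at 0.226 CPM per kb were lowest, below Mx1 at 0.855 and Oas3 at 0.955. Exon lengths include every annotated transcript of a gene, retained introns among them, so the order is approximate.

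Hypoxia was compared with room air within each genotype, which shows what the exposure did to these genes with and without intact Arg2. In wild type lungs 4 of the 43 genes rose and 0 fell at an adjusted p under 0.05 (edgeR, adjusted over the 15766 genes tested). Among all genes 4.98% were called, 2.67% higher and 2.31% lower. The genes were Oas2, Cmpk2, Gbp4 and Ifit1. In knockout lungs 18 rose and 3 fell, where 17.0% of all genes were called, 7.93% higher and 9.1% lower. The 3 that fell were Oas3, Oasl1 and Mx1. The 4 calls in wild type were all among the 18 higher calls of the knockout, and these comparisons share no samples. At an unadjusted p under 0.05 there were 12 members in wild type, all higher, against 16.3% of all genes, and 25 in the knockout, 20 higher and 5 lower, against 29.8%. The median log2 fold change of the 43 was 0.25 in wild type and 0.23 in the knockout, and that of all genes -0.007 and 0.004. DESeq2 and limma voom each also called 4 members in wild type and 21 in the knockout.

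**Figure D1:**
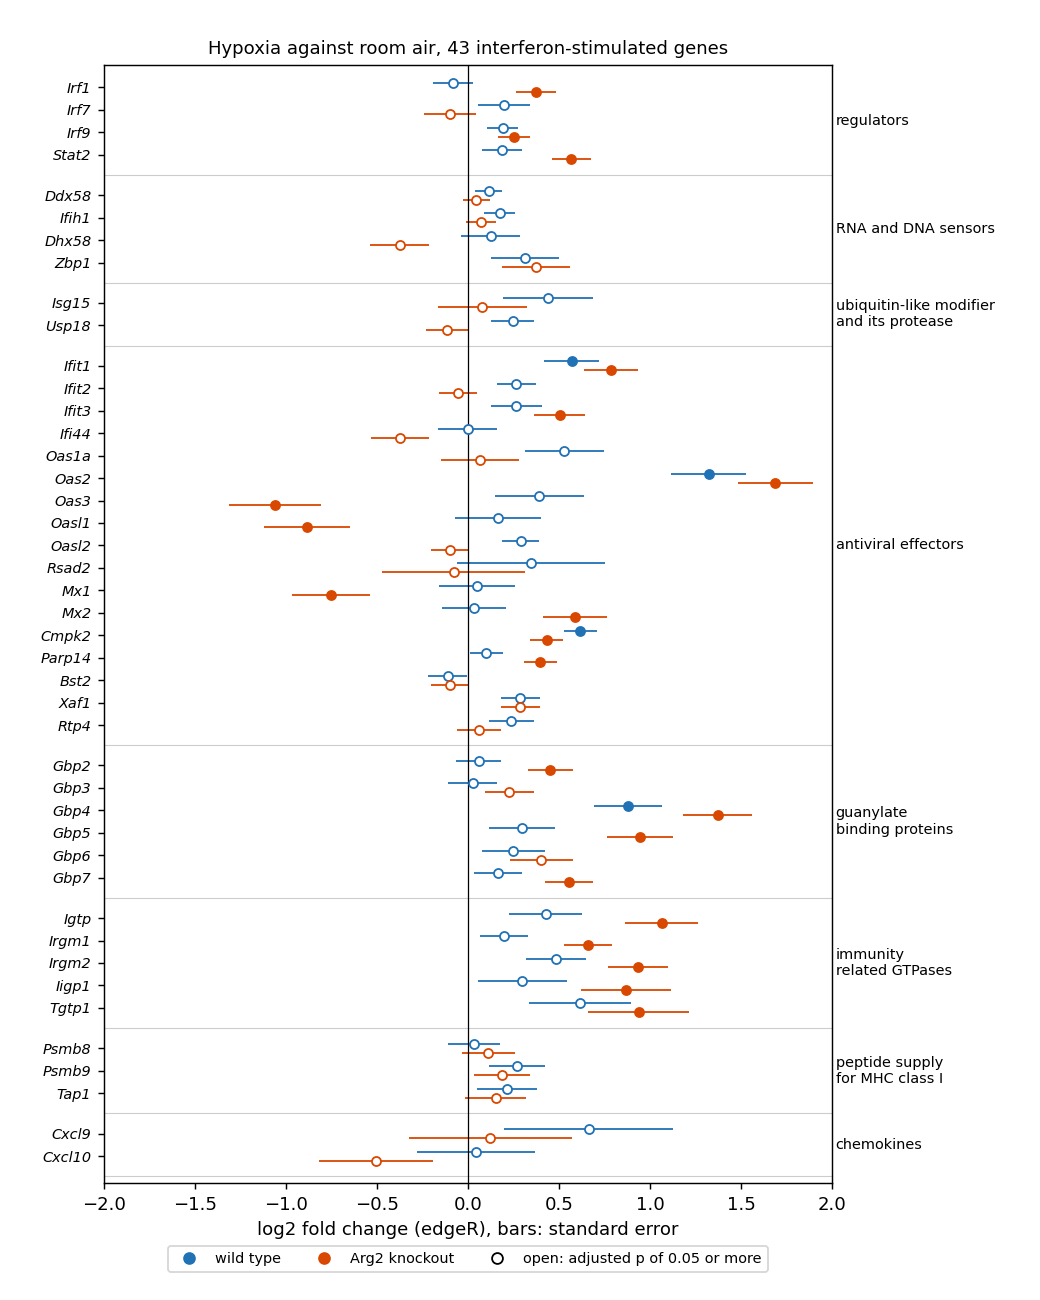
Log2 fold change of hypoxia against room air (x axis) for each of the 43 genes (y axis, grouped by role), in wild type (blue) and Arg2 knockout (orange) lungs, with standard errors as bars and filled points where the adjusted p was under 0.05. In the knockout 9 of 11 GTPase genes were called higher, while Oas3, Oasl1 and Mx1 lay at -0.75 or below.

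These are bulk samples, in which fewer cells of a type and less RNA per cell cannot be told apart. The knockout counts depend on which samples enter. Without knockout room air 3 and 4 and knockout hypoxia 1 and 2, which leaves 2 samples in each knockout group, 6 members were called: Ifit1, Oas2, Gbp4, Irgm1 and Irgm2 higher and Oas3 lower. The share of all genes called fell alongside, from 17.0% to 6.81%. Without wild type room air 3, wild type hypoxia 1 and knockout hypoxia 3, a choice made after seeing the data, 2 were called in wild type (Oas2 and Cmpk2), against 3.6% of all genes, and 18 in the knockout, against 14.6%. Without wild type hypoxia 4 there were 3 in wild type, Ifit1 being lost, against 5.77% of all genes, and without knockout hypoxia 3 there were 17 in the knockout, against 13.3%. Samples of the compared groups did not overlap for 4 members in wild type (8.23% of all genes) and 19 in the knockout (24.4% of all genes).

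The interferons themselves were close to absent from the reads. Of 21 ligand genes 14 had 0 counts in all 16 samples, among them Ifnb1, which encodes interferon beta. A count of 0 allows between 0.0474 and 0.315 CPM, depending on the sample and for counting error only. Ifng, the interferon gamma gene, was the only ligand tested. Wild type samples had 0.107 to 0.594 CPM in room air and 0 to 0.270 in hypoxia and knockout samples 0.0763 to 0.584 and 0.0417 to 0.428, with at most 28 counts in a sample. It was called in 0 comparisons by edgeR, and its groups overlapped. On these few counts its log2 fold change with hypoxia was -2.42 in wild type and -0.66 in the knockout.

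Of 10 genes for receptors and their kinases 1 rose in wild type hypoxia: Ifngr1, the ligand-binding chain of the interferon gamma receptor, went from 205 ± 13.5 to 274 ± 39.3 CPM (mean ± SD, n = 4 samples, fitted log2 fold change 0.42 ± 0.10, adjusted p = 0.019, edgeR). This 1 of 10 stands against 2.67% of all genes called higher in wild type hypoxia. In the knockout Ifngr1 stood at 226 ± 27.3 and 236 ± 12.3 CPM. Of 13 genes that induce interferon, from sensors' adaptors to kinases, 0 were called in wild type hypoxia, against 4.98% of all genes. In the knockout 2 of the 13 fell, where 17.0% of all genes were called, 9.1% lower. They were the transcription factor gene Irf5 (-0.71 ± 0.14, adjusted p = 0.00195, edgeR) and the kinase gene Ikbke (-0.59 ± 0.14, adjusted p = 0.00572).

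Among the regulators, Stat2 and Irf1 rose in knockout hypoxia. Stat2, a transcription factor of the type I response, stood at 44.9, 43.1, 42.7 and 33.4 CPM in knockout room air and 57.1, 64.8, 64.4 and 57.2 in knockout hypoxia, with no overlap (log2 fold change 0.57 ± 0.11, adjusted p = 0.00116, edgeR). In wild type it was at 47.4, 60.5, 47.8 and 62.3 CPM in room air and 57.6, 60.1, 61.2 and 69.7 in hypoxia, and those groups overlapped (0.19 ± 0.11, adjusted p = 0.427). The room air level was thus lower in the knockout than in any wild type sample, and the hypoxia levels of the genotypes were alike in range. Irf1, which carries the interferon gamma response to its later targets, was at 142, 176, 184 and 139 CPM in knockout room air and 208, 211, 199.7 and 213 in knockout hypoxia (0.37 ± 0.11, adjusted p = 0.0223). All 4 knockout hypoxia samples lay above every knockout room air sample. The wild type groups overlapped, at 139.5 to 202 CPM in room air and 147 to 178 in hypoxia (-0.08 ± 0.11). Irf9, the DNA-binding part of the type I complex, rose by 0.25 in the knockout, but the groups overlapped and the call (adjusted p = 0.0481) was lost in 14 of 27 alternatives. Irf7, which amplifies type I interferon production, stood at 20.2 to 20.9 CPM in knockout room air and 17.0 to 23.3 in knockout hypoxia and was not called. The Irf1 call was lost without knockout room air 1 or 4 or knockout hypoxia 2 or 4, and without the 4 samples with genes of other organs. Over all 27 alternatives its adjusted p reached 0.193 at most and its log2 fold change stayed within 0.31 to 0.45.

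Sensors of foreign nucleic acid were not called in either hypoxia comparison. Ddx58, which encodes the RNA helicase RIG-I, had means between 94.1 and 102 CPM in the 4 groups, and Ifih1, which encodes its relative MDA5, between 84.8 and 95.6. The Ddx58 log2 fold change was 0.11 ± 0.07 in wild type and 0.05 ± 0.07 in the knockout. Dhx58, the third member of that helicase family, stood at 8.28 to 9.31 CPM in knockout room air and 5.42 to 7.80 in knockout hypoxia without overlap, yet did not pass (-0.38 ± 0.16, adjusted p = 0.123). Zbp1, a sensor of Z-form nucleic acid that triggers cell death, was at 0.31 ± 0.19 in wild type and 0.37 ± 0.19 in the knockout, with overlapping samples. Isg15, the ubiquitin-like modifier, varied from 3.32 to 8.49 CPM within knockout room air alone, and neither it nor Usp18, the protease that removes it, was called.

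Ifit1, Oas2 and Cmpk2 were the antiviral effectors that rose in both genotypes. Ifit1 binds viral RNA that lacks the host's cap methylation. It stood at 22.0, 20.1, 28.2 and 25.9 CPM in wild type room air and 33.7, 27.2, 43.9 and 37.0 in wild type hypoxia, where 1 hypoxia sample lay within the room air range (log2 fold change 0.57 ± 0.15, adjusted p = 0.0336, edgeR). In the knockout it went from 29.7, 27.8, 30.4 and 21.3 to 37.6, 50.3, 47.0 and 53.6 CPM without overlap (0.78 ± 0.15, adjusted p = 0.00122). The wild type call was lost in 8 of 27 alternatives, among them without wild type room air 1, 2 or 4 and without wild type hypoxia 1, 3 or 4. Over all 27 the log2 fold change of Ifit1 in wild type was 0.45 to 0.68, with an adjusted p of up to 0.131. Cmpk2, a nucleotide kinase of mitochondria, stood at 22.7 to 27.0 CPM in wild type room air against 36.7 to 44.0 in wild type hypoxia (0.62 ± 0.09, adjusted p = 0.000319). In the knockout it stood at 25.4 to 32.3 against 37.3 to 42.9 CPM (0.43 ± 0.09, adjusted p = 0.00265). Its groups did not overlap in either genotype, and both calls were kept in all 27 alternatives except that of the knockout without the 4 samples with genes of other organs.

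The oligoadenylate synthetases, whose product activates RNase L, went in opposite directions in the knockout. Oas2 (chr5:120730333-120749853 on GRCm38, minus strand) stood at 14.4, 9.30, 12.7 and 7.58 CPM in wild type room air and 21.2, 19.8, 38.2 and 30.0 in wild type hypoxia (log2 fold change 1.32 ± 0.21, adjusted p = 0.00064, edgeR). In the knockout it stood at 11.1, 12.4, 12.6 and 9.38 CPM in room air and 35.2, 41.3, 34.9 and 35.5 in hypoxia (1.69 ± 0.20, adjusted p = 2.26e-05). In both genotypes every hypoxia sample exceeded every room air sample, and this was the largest rise among the 43 genes in either genotype. Oas3 (chr5:120753098-120777661, minus strand), the next gene on the same strand, stood at 7.50, 10.5, 7.10 and 6.41 CPM in knockout room air and 3.22, 4.93, 4.29 and 2.74 in knockout hypoxia (-1.06 ± 0.25, adjusted p = 0.00653). Its wild type samples were at 8.78, 6.57, 5.16 and 5.88 CPM in room air and 5.30, 9.15, 7.59 and 12.8 in hypoxia (0.39 ± 0.25, adjusted p = 0.475). Oas3 thus fell without overlap in the knockout, whereas its wild type groups overlapped. The ratio of Oas2 to Oas3 reads in wild type was between 1.29 and 2.46 in room air and between 2.16 and 5.03 in hypoxia. In the knockout it was between 1.18 and 1.77 in room air and between 8.13 and 12.9 in hypoxia. Oas1a, which has near-identical copies among which reads could be split, so that its values are uncertain, was at 0.53 ± 0.21 in wild type and 0.06 ± 0.21 in the knockout and was not called.

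Promoters from RefSeq (GRCm38.p6, 250 bases before to 50 after a gene's start) were found for 32 of the 43 genes. Both strands were searched for GAAA, any 2 bases and GAAA again, the core of an interferon-stimulated response element, and for TTCNNNGAA, the core of a gamma-activated site. The first occurred in 19 of the 32 (59.38%), against 3.99% of 27025 promoters, and the second in 10 (31.25%), against 9.55%. A match is only a string of letters, not a bound site. The windows of Ifit1, which rose in both genotypes, and of Oas3, which fell in the knockout, are shown with the matches in capitals, on the gene's strand, at chr19:34640725-34640814 (plus) and chr5:120777705-120777794 (minus).
Ifit1: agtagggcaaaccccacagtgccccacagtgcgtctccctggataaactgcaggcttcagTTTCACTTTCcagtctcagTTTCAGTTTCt
Oas3: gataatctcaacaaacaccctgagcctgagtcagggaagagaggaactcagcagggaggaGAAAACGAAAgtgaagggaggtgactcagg
Ifit1 holds 2 matches of the first motif, both on the other strand, and Oas3 holds 1 on the gene's own strand. Neither window holds the second motif.

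Of the remaining effectors, Mx1 and Oasl1 fell and Ifit3, Mx2 and Parp14 rose in knockout hypoxia. Mx1, a nuclear GTPase against orthomyxoviruses that is defective in many inbred strains, stood at 3.97, 3.02, 3.48 and 3.55 CPM in knockout room air and 1.97, 1.63, 2.09 and 2.60 in knockout hypoxia (log2 fold change -0.75 ± 0.21, adjusted p = 0.019, edgeR). Oasl1, which in mice restrains translation of Irf7, went from 3.62, 3.40, 3.58 and 4.77 to 1.97, 1.34, 2.77 and 2.27 CPM (-0.88 ± 0.24, adjusted p = 0.0134). Neither gene's samples overlapped in the knockout, and both overlapped in wild type (0.05 ± 0.21 for Mx1 and 0.16 ± 0.23 for Oasl1). Mx2, the cytoplasmic relative of Mx1, rose from 3.12 ± 0.526 to 4.71 ± 0.428 CPM (0.59 ± 0.18, adjusted p = 0.0265). Parp14, an ADP-ribosyltransferase and the most read of the 43, rose from 198 ± 25.4 to 260.0 ± 14.2 CPM (0.40 ± 0.09, adjusted p = 0.00455). Ifit3 rose from 39.0 ± 2.70 to 55.3 ± 7.84 CPM (0.50 ± 0.14, adjusted p = 0.0171). Leaving out knockout room air 1 or knockout hypoxia 2 ended the Mx1 call, knockout room air 3 or knockout hypoxia 3 the Ifit3 call, and knockout room air 3 or 4 or knockout hypoxia 3 or 4 the Mx2 call. Over the alternatives the log2 fold change was -0.89 to -0.58 for Mx1, 0.43 to 0.59 for Ifit3 and 0.48 to 0.73 for Mx2, with adjusted p of up to 0.333, 0.122 and 0.227. Rsad2, which encodes viperin, spread widely, from 35.1 to 116 CPM within knockout room air, and was not called with hypoxia. Ifit2, Ifi44, Oasl2, Bst2, Xaf1 and Rtp4 were not called with hypoxia in either genotype. Of these, Ifi44 had the lowest log2 fold change in the knockout, -0.37 ± 0.16 against -0.00 ± 0.16 in wild type, and Xaf1, a promoter of cell death, was at 0.29 ± 0.11 in wild type and 0.29 ± 0.11 in the knockout. Bst2 was at -0.11 ± 0.11 and -0.10 ± 0.10, with means between 54.7 and 59.5 CPM over the 4 groups.

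**Figure D2:**
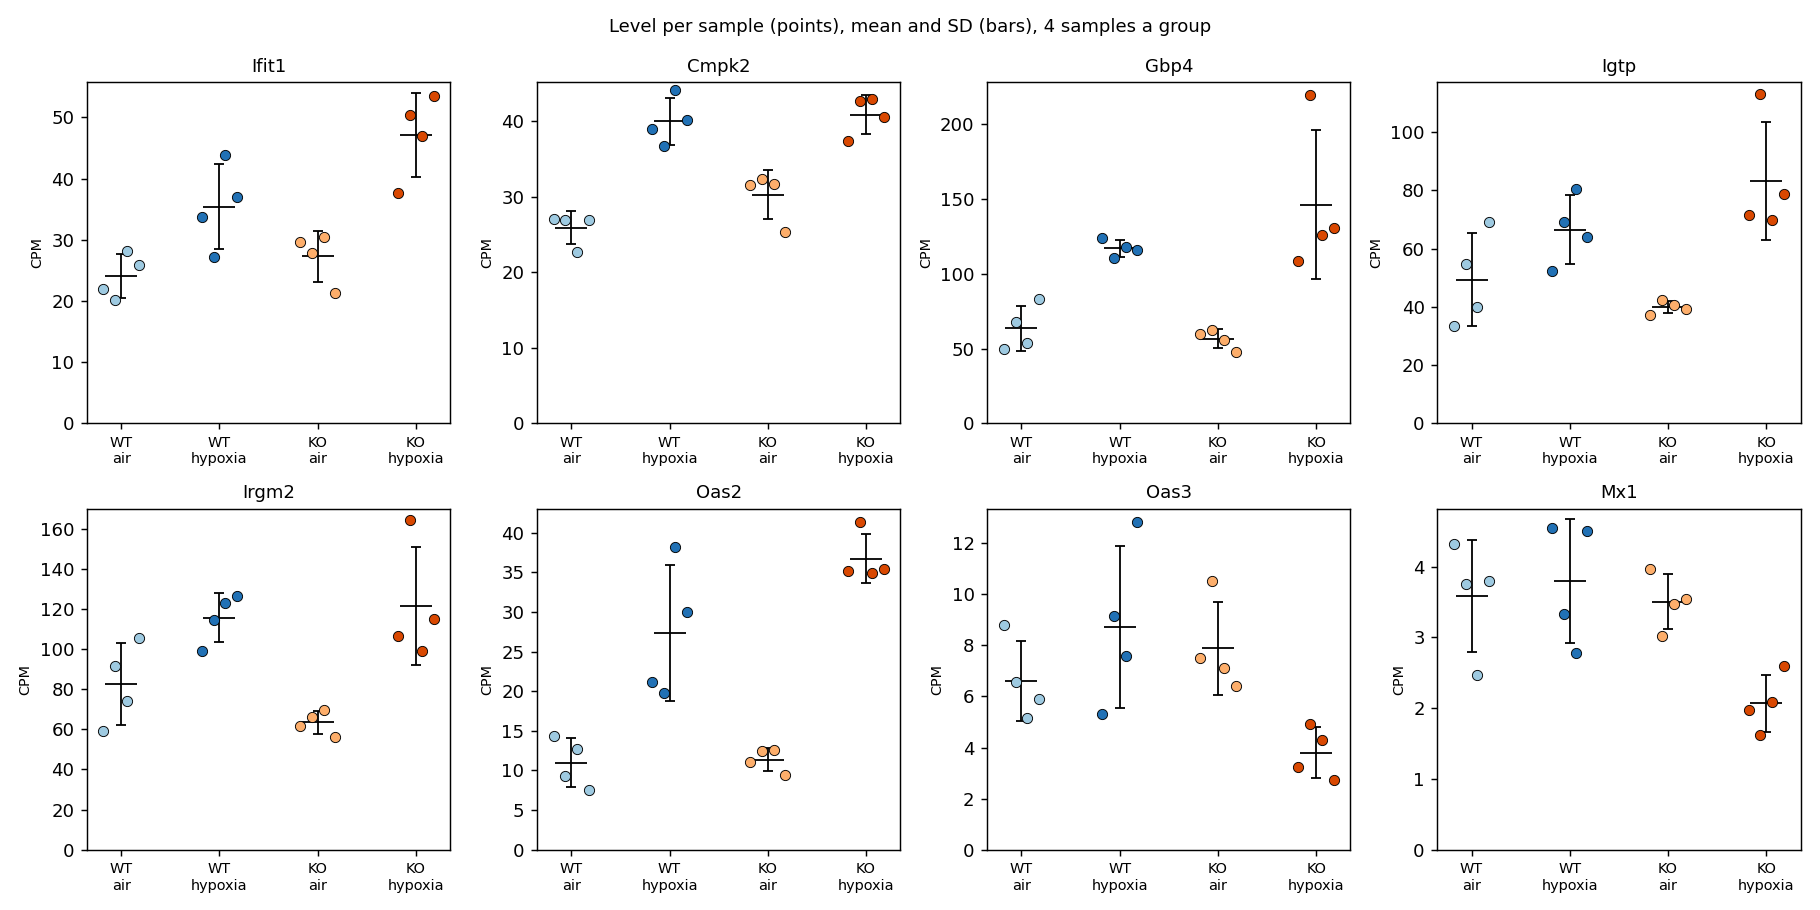
Level in CPM (y axis, from 0) of 8 of the genes in each sample (points) of the 4 groups (x axis, WT wild type, KO Arg2 knockout), with the mean and SD of 4 samples as bars. Oas2 and Gbp4 were higher in every hypoxia sample of either genotype than in the room air samples of that genotype, and Oas3 was at 4.93 CPM or below in the 4 knockout hypoxia samples.

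Of the 11 GTPases that interferon gamma induces 1 rose with hypoxia in wild type, where 2.67% of all genes were called higher, and 9 in the knockout, where 7.93% were (edgeR). None fell in either, and all 11 log2 fold changes were positive in both. Their median was 0.30 in wild type and 0.87 in the knockout, and 7 of the 11 had no overlap in the knockout, against 24.4% of all genes. Summed over the 11 genes, wild type samples had 539.7, 669, 576 and 868 CPM in room air and 765, 837, 896 and 810.0 in hypoxia. Knockout samples had 619, 589, 595 and 529.8 CPM in room air and 791, 1304, 912 and 926 in hypoxia, with the lowest of the latter above the highest of the former. Knockout hypoxia 2 was the highest sample of its group for 11 of the 11 genes and wild type room air 4 for 10 of the 11. For the 26 type I type genes the median was 0.24 in wild type, with 3 called higher, and 0.06 in the knockout, with 8 higher and 3 lower. Knockout calls among the 11 GTPases numbered 3 to 10 over the alternatives, with a median log2 fold change of 0.61 to 0.98.

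Guanylate binding proteins coat microbes and their vacuoles. Gbp4 (chr5:105115767-105139586, minus strand) stood at 49.5, 67.5, 53.6 and 83.2 CPM in wild type room air and 124, 111, 118 and 116 in wild type hypoxia (log2 fold change 0.88 ± 0.19, adjusted p = 0.0102, edgeR). In the knockout it went from 59.6, 62.5, 55.9 and 48.0 to 109, 219, 126 and 131 CPM (1.37 ± 0.19, adjusted p = 0.000112). No hypoxia sample overlapped room air in either genotype, and knockout hypoxia 2 stood far above the rest. Gbp4 shares 61 exon bases with Gbp8 and 60 with Gbp9, so some of its reads may belong to them. Gbp5, which promotes inflammasome assembly, stood at 14.3, 12.3, 12.6 and 10.3 CPM in knockout room air and 22.3, 29.4, 20.3 and 23.7 in knockout hypoxia (0.95 ± 0.18, adjusted p = 0.00143). Gbp7 stood at 119 to 139 CPM in knockout room air and 164 to 239 in knockout hypoxia (0.55 ± 0.13, adjusted p = 0.00652). Gbp2 stood at 93.5 to 98.1 and 108 to 154 CPM in the same groups (0.45 ± 0.12, adjusted p = 0.0164). The knockout groups did not overlap for these 3 genes, while the wild type groups overlapped and none was called there. The Gbp2 call was lost without knockout hypoxia 2 or 3, with a log2 fold change of 0.36 to 0.53 and an adjusted p of up to 0.189 over the alternatives. Gbp3 (0.23 ± 0.13) and Gbp6 (0.40 ± 0.17) were not called in the knockout, and Gbp6 has near-identical neighbours among which reads could be split.

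Immunity related GTPases pull apart the vacuoles of intracellular parasites, and all 5 rose in knockout hypoxia while 0 were called in wild type (edgeR, where Igtp, Irgm2 and Tgtp1 had an unadjusted p under 0.05). Irgm2 (chr11:58199618-58222782, plus strand) stood at 61.8, 66.1, 69.6 and 56.4 CPM in knockout room air and 107, 165, 99.1 and 115 in knockout hypoxia (log2 fold change 0.93 ± 0.17, adjusted p = 0.000794). In wild type it was at 58.9, 91.8, 74.3 and 106 CPM in room air and 99.2, 114, 123 and 127 in hypoxia (0.48 ± 0.17, adjusted p = 0.116). The knockout groups did not overlap, and in wild type the highest room air sample lay above the lowest hypoxia sample. Igtp (chr11:58199556-58207591, plus strand), like Irgm1 and Irgm2 a regulator of the family, stood at 37.3, 42.2, 40.5 and 39.1 CPM in knockout room air and 71.6, 113, 69.6 and 78.7 in knockout hypoxia (1.07 ± 0.20, adjusted p = 0.00153). Irgm1 went from 49.6, 49.2, 52.3 and 45.9 to 61.6, 99.5, 71.2 and 78.9 CPM (0.66 ± 0.13, adjusted p = 0.00192). Both regulators rose without overlap. The effectors Iigp1 (0.87 ± 0.25, adjusted p = 0.0249) and Tgtp1 (0.94 ± 0.28, adjusted p = 0.0266) rose as well, but their samples overlapped, at 51.4 to 91.5 CPM in room air and 82.8 to 170.2 in hypoxia for Iigp1. Both of these calls were lost without knockout room air 3 or 4 or knockout hypoxia 2 or 4, Iigp1 also without knockout room air 2 and with the replicate number as a block, and Tgtp1 also without knockout room air 1. Over all 27 alternatives the log2 fold change was 0.60 to 1.07 for Iigp1 and 0.69 to 1.15 for Tgtp1, with adjusted p of up to 0.27 and 0.238. Tgtp1 has a near-identical copy, Tgtp2, and the annotated spans of Irgm2 and Igtp overlap, with 162 exon bases shared on the same strand. Reads of these genes may be split or lost.

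The GTPase genes also shared promoter letters. All 8 with a promoter in the table held the first motif and 5 of 8 the second, against 10 of 18 and 3 of 18 type I type genes. The windows shown are those of the 3 regulators and of Tgtp1 and Gbp7, which moved together in the knockout, at chr11:58199462-58199551 (plus), chr11:58214853-58214942 (plus), chr11:48871421-48871510 (minus), chr11:48992294-48992383 (minus) and chr3:142530223-142530312 (plus), with matches in capitals.
Igtp: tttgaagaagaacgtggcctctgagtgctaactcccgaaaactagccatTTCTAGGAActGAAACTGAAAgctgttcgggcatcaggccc
Irgm2: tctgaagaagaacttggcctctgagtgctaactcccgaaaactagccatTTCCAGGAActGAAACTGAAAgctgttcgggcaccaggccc
Irgm1: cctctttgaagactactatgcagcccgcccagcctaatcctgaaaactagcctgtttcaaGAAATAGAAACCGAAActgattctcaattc
Tgtp1: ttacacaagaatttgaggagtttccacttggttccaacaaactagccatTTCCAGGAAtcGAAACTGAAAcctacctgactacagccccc
Gbp7: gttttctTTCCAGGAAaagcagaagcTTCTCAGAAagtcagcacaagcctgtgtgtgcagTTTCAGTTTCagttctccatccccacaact
In Igtp, Irgm2 and Tgtp1 the second motif begins 11 bases before the first. The windows of Igtp and Irgm2 are identical at 86 of 90 bases, whereas that of Tgtp1 matches Igtp at 47 and Irgm2 at 49. Irgm1 holds 2 overlapping matches of the first motif and none of the second in its window.

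Genes of peptide supply and the chemokines were not called with hypoxia. Psmb8 and Psmb9, subunits of the immunoproteasome, had log2 fold changes of 0.11 ± 0.14 and 0.19 ± 0.15 in the knockout, and Tap1, which carries peptides into the endoplasmic reticulum, 0.15 ± 0.17. Psmb9 and Tap1 overlap on opposite strands by 212 exon bases, and the labels do not say whether counting used strand. Cxcl9 and Cxcl10, which attract T and natural killer cells through Cxcr3, stayed at 1.70 CPM or below in all 16 samples. Of 10 further MHC class I genes 0 were called with hypoxia in either genotype by edgeR, with medians of 0.05 and 0.11. Among all genes 4.98% were called in wild type hypoxia and 17.0% in knockout hypoxia.

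The genotypes were compared in room air to see what loss of Arg2 did without hypoxia. Of the 43 genes 0 were called (edgeR), where 0.0761% of all genes were called, 0.0571% higher and 0.019% lower. At an unadjusted p under 0.05 there were 9, 3 higher and 6 lower, against 21.6% of all genes. DESeq2 called 3 (Stat2 and Gbp5 lower, Rsad2 higher), against 7.1% of all genes, and limma voom 2 (Stat2 and Rsad2), against 6.18%. Rsad2 had the highest log2 fold change of the 43, 1.24 ± 0.41 (adjusted p = 0.109, edgeR), at 38.6, 14.1, 39.2 and 23.5 CPM in wild type and 74.5, 116, 45.2 and 35.1 in the knockout. Its groups overlapped. All 11 GTPases were lower in the knockout, with a median log2 fold change of -0.19, and the 26 type I type genes had a median of 0.04. Over the alternatives the GTPase median was -0.332 to -0.01, and Gbp3, Gbp7 and Tgtp1 reached positive values, up to 0.159 for Gbp7. Wild type room air 4 was the highest sample of its group for 10 of the 11 GTPases. Gbp5 had the lowest log2 fold change of the 43, -0.57 ± 0.18 (adjusted p = 0.0967), and stood at 15.3, 22.4, 12.0 and 23.0 CPM in wild type against 14.3, 12.3, 12.6 and 10.3 in the knockout, where 1 wild type sample fell within the knockout range. Without wild type room air 3, the sample with the fewest reads in genes, Stat2, Mx2, Gbp5 and Tap1 were called lower, 4 of 43 where 13.8% of all genes were called. The samples of 2 members did not overlap (10.4% of all genes): Stat2 and, among the antiviral effectors, Ifi44, at 10.8 to 13.9 CPM in wild type and 14.2 to 19.3 in the knockout.

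In hypoxia the knockout had less Oas3, Oasl1, Oasl2, Mx1, Dhx58 and Tap1 than wild type, and more Irf1 and Gbp7. Of the 43 genes 2 were called higher and 6 lower, where 23.0% of all genes were called, 11.0% higher and 12.1% lower. The share among the members, 8 of 43, was therefore not above that of all genes. At an unadjusted p under 0.05 there were 12 members against 36.9%, and samples did not overlap for 8 members against 25.4%. This comparison shares its hypoxia samples with the hypoxia comparisons above, so values are given side by side.

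Rsad2 again had the highest log2 fold change, 0.82 ± 0.40, without a call (adjusted p = 0.155, edgeR). Oas3 was the member with the lowest log2 fold change, at -1.23 ± 0.25 (adjusted p = 0.0032, edgeR), with 5.30 to 12.8 CPM in wild type and 2.74 to 4.93 in the knockout. Mx1 followed at -0.86 ± 0.22 (adjusted p = 0.00952), with 2.78 to 4.54 CPM in wild type and 1.63 to 2.60 in the knockout. Oasl1 was at -0.76 ± 0.24 (adjusted p = 0.0277), with 2.97 to 4.44 CPM in wild type and 1.34 to 2.77 in the knockout. None of the 3 overlapped between genotypes. Oasl2, an oligoadenylate synthetase relative whose call was kept in all 27 alternatives, stood at 43.9, 52.0, 62.2 and 57.3 CPM in wild type and 36.5, 40.1, 39.5 and 36.0 in the knockout (-0.50 ± 0.10, adjusted p = 0.00283). Dhx58, the helicase gene that did not pass with hypoxia, stood at 11.0, 10.5, 11.0 and 9.42 CPM in wild type and 7.80, 7.60, 5.42 and 6.19 in the knockout (-0.63 ± 0.16, adjusted p = 0.0108). For both genes every knockout sample lay below every wild type sample.

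Tap1 stood at 79.4 to 95.8 CPM in wild type hypoxia and 51.1 to 78.1 in knockout hypoxia (-0.49 ± 0.17, adjusted p = 0.043, edgeR). Irf1 was higher, at 147 to 178 against 199.7 to 213 CPM (0.33 ± 0.11, adjusted p = 0.0344), and so was Gbp7, at 133 to 157 against 164 to 239 CPM (0.38 ± 0.13, adjusted p = 0.043). These calls lay near the threshold. They were lost in 12 (Tap1), 8 (Irf1) and 15 (Gbp7) of 27 alternatives, and that of Oasl1 in 7, while those of Oas3, Oasl2 and Dhx58 were kept in all 27. Without wild type hypoxia 4 there were 4 calls, against 17.7% of all genes, without knockout hypoxia 4 there were 4, against 13.2%, and without knockout hypoxia 3 there were 5, against 14.9%. The 11 GTPases had a median of 0.16, with 10 positive.

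**Figure D3:**
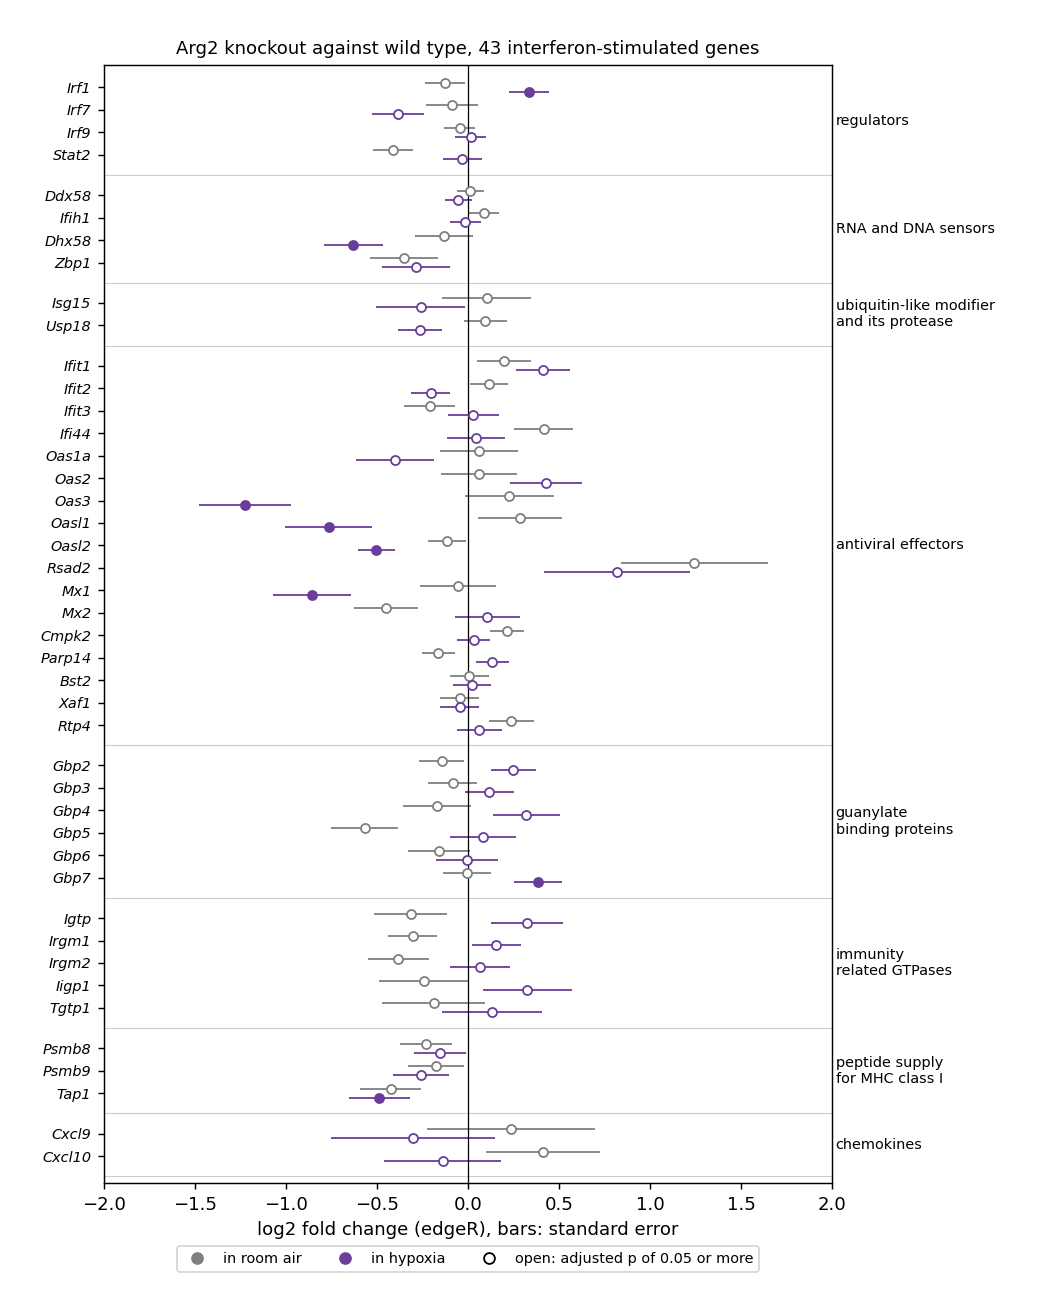
Log2 fold change of Arg2 knockout against wild type (x axis) for each of the 43 genes (y axis, grouped by role), in room air (grey) and hypoxia (purple), with standard errors as bars and filled points where the adjusted p was under 0.05. No point is filled in room air, and the lowest in hypoxia is Oas3 at -1.23.

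Whether the genotypes responded differently was tested as the difference between their hypoxia effects. Of the 43 genes 0 were called (edgeR), where 0.501% of all genes were called, 0.279% higher and 0.222% lower. At an unadjusted p under 0.05 there were 15, 8 higher and 7 lower, against 14.1% of all genes. Oas3 came nearest, with a difference of -1.45 ± 0.35 (95% interval -2.15 to -0.76, adjusted p = 0.0678). DESeq2 called it, and so did edgeR with the GC trend removed or with sample 1 of either wild type group left out, whereas limma voom called 0 members. Oasl1 (-1.05 ± 0.33, adjusted p = 0.146) and Mx1 (-0.80 ± 0.30, adjusted p = 0.223) were next among those with a negative difference. All 11 GTPases had a positive difference, with a median of 0.45, the largest for Gbp5 at 0.65 ± 0.26 (adjusted p = 0.261). Over the alternatives that median was 0.269 to 0.539, and the difference for Gbp6 went down to -0.05. The difference draws on the same room air samples as the genotype comparison above. The 26 type I type genes had a median of -0.18. For the 14 members called higher and the 3 called lower with hypoxia in the knockout alone, the difference between genotypes was therefore not itself called.

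Markers of other cells are given beside these values. With hypoxia 2.67% of all genes were called higher and 2.31% lower in wild type, and 7.93% and 9.1% in the knockout. Of 22 tested marker genes for T cells and natural killer cells, 9 fell in wild type (median log2 fold change -0.76) and 20 in the knockout (-1.55), and 0 rose (edgeR). Their summed level per sample was 194 to 275 CPM with room air and 129 to 139 with hypoxia for wild type, and 181 to 253 and 67.4 to 107 for the knockout. Gzma, which encodes a granzyme, had log2 fold changes of -1.26 ± 0.19 in wild type (adjusted p = 0.000387, edgeR) and -1.55 ± 0.19 in the knockout (adjusted p = 2.47e-05). Of 8 markers of plasmacytoid dendritic cells, the main producers of type I interferon, 3 fell in wild type and 5 in the knockout, with Siglech at -1.13 ± 0.21 and -1.50 ± 0.22. In each genotype 1 of the 8 had a positive log2 fold change, 0.118 in wild type and 1.954 in the knockout. Their summed level overlapped, at 279 to 334 CPM in room air and 265 to 330 in hypoxia for wild type. In the knockout it was 297 to 351 and 266 to 330 CPM. Of 12 B cell markers 4 fell in wild type and 11 in the knockout. Of 14 monocyte and macrophage markers 1 rose in wild type, and 2 rose and 2 fell in the knockout, with Chil3 higher in both. Their summed level did not overlap between room air and hypoxia, at 1126 to 1304 against 1329 to 1628 CPM in wild type and 1172 to 1306 against 1453 to 1810 in the knockout. A sum follows its most abundant genes. Over the 14 markers the median log2 fold change was 0.171 in wild type, with 9 positive and 5 negative. In the knockout it was -0.058, with 7 positive and 7 negative. Of 9 neutrophil markers 0 were called in wild type and 3 fell in the knockout, of 10 endothelial markers 1 rose and 2 fell in wild type and 4 rose and 1 fell in the knockout, and of 10 epithelial markers 1 rose in each. The summed endothelial level was 4666 to 4869 CPM in room air and 4320 to 5065 in hypoxia for wild type, and 4440 to 5014 against 5039.7 to 5486 for the knockout. The 10 endothelial markers had a median log2 fold change of -0.024 in wild type and -0.017 in the knockout, with 4 positive and 6 negative in each. Between genotypes in hypoxia, where 23.0% of all genes were called, 11 of 12 B cell markers were called lower in the knockout (median -1.27), 11 of 22 T and natural killer cell markers were lower with all 22 log2 fold changes negative, and 5 of 10 endothelial markers were higher and 2 lower. All 22 T and natural killer cell markers had reads in every group. The part of these cells in the values of the 43 genes was not tested.

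**Figure D4:**
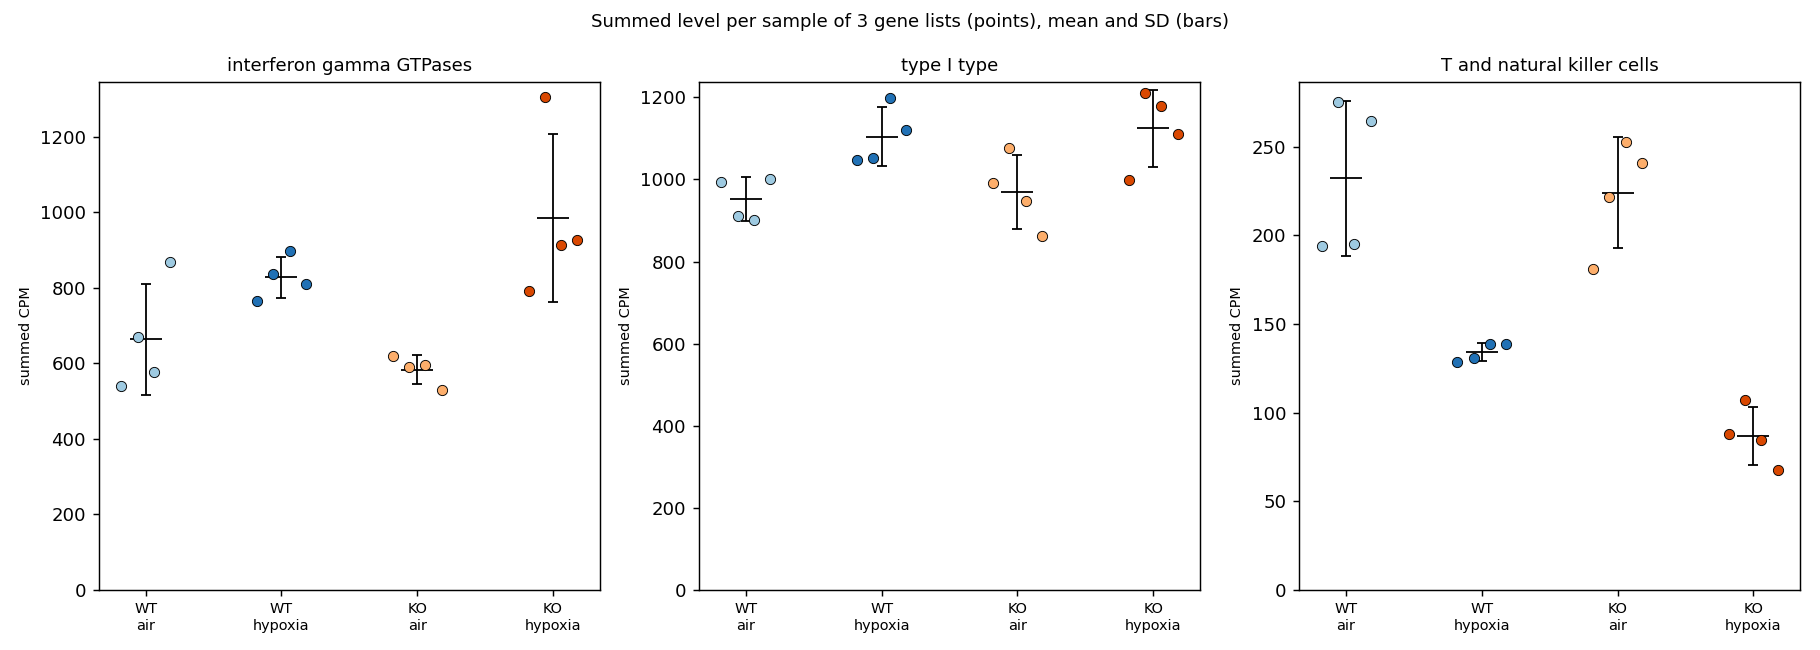
Summed level in CPM (y axis, from 0) of the 11 GTPase genes, the 26 type I type genes and 22 markers of T and natural killer cells in each sample (points) of the 4 groups (x axis, WT wild type, KO Arg2 knockout), with the mean and SD of 4 samples as bars. Knockout hypoxia samples lay at 791 to 1304 CPM for the GTPases and at 67.4 to 107 CPM for the lymphocyte markers.

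A further list of 50 interferon-stimulated genes, chosen like the first with earlier results known, had 46 tested. In wild type hypoxia 2 rose, Samd9l (0.57 ± 0.14) and Tor3a (0.33 ± 0.09), and 1 fell, Slfn8 (-0.57 ± 0.16). Of all genes 2.67% were called higher and 2.31% lower there, so these counts are near that share. In knockout hypoxia 7 rose and 3 fell, with the ubiquitin ligase gene Herc6 at 0.68 ± 0.12 and Slfn5 at 0.52 ± 0.09 among the first and Slfn8 at -1.08 ± 0.17 among the second. Between genotypes 0 were called in room air by edgeR, where 0.0761% of all genes were. In hypoxia 5 were higher in the knockout, Herc6 (0.64 ± 0.12) and Slfn5 (0.49 ± 0.09) among them, and 7 lower, with Lgals3bp at -0.66 ± 0.10. These 12 of 46 are near the 23.0% of all genes called in that comparison, and the 10 of 46 in knockout hypoxia stand against 17.0%. Median log2 fold changes of this list were 0.07 in wild type hypoxia and 0.13 in knockout hypoxia. Of 8 inhibitors of the pathway, the phosphatase gene Ptpn6 fell in knockout hypoxia (-0.54 ± 0.11, adjusted p = 0.00239, edgeR) and the suppressor gene Socs1 was not called. This 1 of 8 stands against 9.1% of all genes called lower there.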

How the data were processed

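RNA-seq of 16 whole lung samples (4 in each group) came as counts per gene in 20 libraries. The deposited counts were made by the authors with Trim Galore, TopHat2, HTSeq and the mouse build mm10, per the submitters' processing notes. No versions, annotation or strand setting are stated there.

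In 4 samples a library A and a library B share a number. These pairs differed by a chi-square per degree of freedom of 1.52 to 2.06, against 3.69 to 143 for other pairs, and were summed into 1 sample. The 5 lines that name no gene stayed out of the totals. CPM is the count per 1000000 reads in genes, with library sizes scaled by TMM (trimmed mean of M-values). A floor of 3 counts was 0.0474 to 0.315 CPM on the unscaled totals. Floors and intervals of counts cover counting error only. Nothing but the numbers marks samples as separate animals, so p-values cover only sample-to-sample spread, which may be technical.

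Counts were fitted with edgeR 4.0.16 (R 4.3.3; TMM, quasi-likelihood, 1 fit over the 4 groups, Benjamini-Hochberg adjustment over 15766 genes). The filter (minimum count 10, minimum total 15) removed 8296 of 24062 genes. The coefficient of biological variation was 15.8%. The SE given with edgeR was derived from its test, as the absolute log2 fold change over the square root of the F statistic. The interval of a log2 fold change used that SE with a normal approximation. Alternatives numbered 27, among them DESeq2 1.42.0, limma voom (3.58.1), other scalings and leaving out each sample. The steps were tested on simulated data.

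Members and lists were chosen with earlier results of these data known. Any member could be named. Full statistics were planned for Arg2 and, in each comparison, up to 10 members with the smallest p. In knockout hypoxia they are given for more members than that, Irf1, Mx2 and Dhx58 among them. At most 4 genes of each further list were named per comparison by smallest p. Ifnb1 and Ifng were always given, and 1 further gene of that rule is not reported here. Others named, among them Socs1, Chil3, Gzma and Siglech, were chosen after their values were seen. Positions are from GENCODE vM21 on GRCm38.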

Additional observations from a re-analysis of the deposited data

Results flagged for a closer look

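In 10 of the 172 sets of 4 samples (43 genes in 4 groups) the highest or lowest sample stood farther from its nearest neighbour than Dixon's 95% critical value allows, and chance flags about 1 in 20. Oas2 was highest in knockout hypoxia 2 at 41.3 CPM. Irf9 was lowest in knockout hypoxia 1 at 67.1 CPM. In knockout room air, Oasl1 was highest in sample 4 at 4.77 CPM, Cmpk2 was lowest in sample 4 at 25.4 CPM, Gbp2 was highest in sample 1 at 98.1 CPM and Ifih1 was lowest in sample 3 at 82.6 CPM. Cmpk2 was lowest in wild type room air 3 at 22.7 CPM. In wild type hypoxia, Bst2 was lowest in sample 4 at 44.7 CPM, Rtp4 was highest in sample 3 at 37.8 CPM and Cxcl10 was highest in sample 1 at 1.51 CPM.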

How the results depend on the processing

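Over the 27 alternatives no single gene's result reversed its direction past the threshold. Of 5762 such results 5557 kept a call and its direction, or stayed uncalled within 1 SE of the main value. Another 109 lost a call, 44 gained one and 52 uncalled values moved by over 1 SE. Uncalled values could change sign, as that of Mx1 did in wild type hypoxia (-0.155 to 0.174). Without the 4 samples with genes of other organs, members called fell from 21 to 6 in knockout hypoxia (17.0% to 6.81% over all genes) and from 8 to 4 between genotypes in hypoxia (23.0% to 14.1%). Without the 3 samples whose share of reads in genes, as defined above, was under 40%, wild type hypoxia had 2 in place of 4. The room air genotypes then had 3 in place of 0. DESeq2 called 3 and limma voom 2 in that comparison, and the difference between hypoxia effects had 1 with DESeq2 and 1 with the GC trend removed (GC was known for 99.2% of genes). Leaving out single samples gave 3 to 5 in wild type hypoxia, 15 to 23 in knockout hypoxia (15 without knockout hypoxia 2), 0 to 4 between genotypes in room air, 4 to 10 in hypoxia and 0 to 1 for the difference. With the replicate number as a block the counts were 4, 20, 0, 9 and 0. Correlations of same-numbered samples across groups ran from -0.139 to 0.174, with 3 of 24 over 0.1. Those of differently numbered samples ran from -0.239 to 0.157. Such low correlations cannot exclude that the numbers pair the samples. The causes were not tested. Depth limits what can be read from the chemokines, with as few as 6 counts (Cxcl10) and 7 counts (Cxcl9) in a sample.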
